A study of Mus musculus with 8 samples.

Results

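Cyclic GMP is made by receptor guanylyl cyclases that bind natriuretic peptides and by a soluble guanylyl cyclase that binds nitric oxide. It acts largely through cGMP-dependent protein kinase and is broken down by phosphodiesterases. Caveolin-1, the scaffold protein of caveolae, is best known in this pathway as a partner and inhibitor of endothelial nitric oxide synthase.

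The genes of this pathway were examined in primary mouse mesothelial cells (MCs), the cells that line the peritoneal cavity. They were named by symbol: the natriuretic peptide receptors Npr1, Npr2 and Npr3, the nitric oxide synthases Nos2 and Nos3, the soluble guanylyl cyclase subunits Gucy1a3 and Gucy1b3, the kinase Prkg1 and the phosphodiesterase Pde5a. Of these 9 genes, 8 were measured among 13687 genes in all, and Nos3 was not analysed here. The set was built around Npr1, which was chosen by its measured level, lower in Cav1-null than in WT cells. The genotype difference of Npr1 is therefore given as a description with no test.

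MCs were taken by trypsin digestion from the parietal peritoneum of CAV1-/- mice (Cav-1- in the sample labels, strain B6.Cg-CAV1tm1mls/J, called KO here) and of their WT littermates, and were grown with fetal calf serum. Cells of each animal were kept static or stretched for 24 h, which gave 4 groups (WT static, WT stretched, KO static and KO stretched) of 2 cultures each. RNA-seq was made from polyadenylated RNA. The allele was lost from the whole animal, the cultures of a genotype came from 2 animals, and mice of both sexes were used, while ages were not given in the sources used here. With 2 animals per group, an exact two-sided permutation test cannot give a p below 0.333. The p-values therefore come from limma, a linear model fitted over all 13665 genes tested. They set each difference against the spread between cultures of a group, which limma estimates with the help of the other genes. The main fit takes the static and stretched cultures of an animal as independent. Their deviations from the group means correlated (r = 0.703 in WT and 0.85 in KO). Genotype p-values and intervals thus rest on fewer independent values than the fit assumes.

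Library sizes ranged from 9777738 to 21203938 reads, with each stretched library larger than any static one. Values are reads scaled to a library of 1000000 after trimmed-mean normalization (CPM), at which 3 reads correspond to 0.146 to 0.308 CPM. Cav1 itself stood at 764 and 275 CPM in WT static cells and at 34.5 and 18.9 CPM in KO static cells, and it was 24.9-fold lower in KO than in WT stretched cells. Summed over 11 mesothelial markers, the level was 2980 to 3790 CPM in WT cultures and 914 to 1150 CPM in KO cultures. Of the 11 markers, 9 were lower in all 4 KO cultures than in all 4 WT cultures, as were 5.88% of all genes. The others, Wt1 and Krt19, overlapped between the genotypes. Summed over 12 leukocyte markers, both cultures of KO replicate 1 stood apart at 4840 CPM each, against 307 and 337 CPM in KO replicate 2 and 76.0 to 466 CPM in WT cultures. No leukocyte marker was at 0 in any library. Endothelial markers summed to 55.9 to 121 CPM. In bulk RNA, fewer cells of one type and less RNA per cell cannot be told apart.

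The 8 genes were expressed at moderate to low levels. Per kilobase of exon and averaged over all 8 cultures, Npr2 had the highest level (7.34 CPM per kilobase, above 58.8% of the genes tested), followed by Npr1 (2.06), Gucy1a3 (1.37), Prkg1 (1.28), Npr3 (0.999), Nos2 (0.549), Pde5a (0.539) and Gucy1b3 (0.487, above 9.04% of the genes). The order differed between genotypes. In WT static cells Npr2 (8.0 CPM per kilobase), Npr1 (4.48) and Gucy1a3 (3.47) were the 3 highest and Nos2 (0.00915) the lowest. In KO static cells Npr2 was again highest (7.38), while Npr1 (0.191) and Gucy1a3 (0.235) stood below Prkg1 (0.777), Npr3 (0.743), Nos2 (0.726) and Pde5a (0.492). Gucy1b3 was lowest there (0.163). Neighbours in the KO order had overlapping replicates, apart from Npr2 and Prkg1 and from Pde5a and Gucy1a3.

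Npr1 (ENSMUSG00000027931, chromosome 3, 90450591 to 90465866 of GRCm38, minus strand) encodes the receptor guanylyl cyclase that binds atrial and B-type natriuretic peptides. The DNA upstream of Npr1 is shown because Npr1 is the gene around which the set was built. It is the RefSeq sequence of GRCm38.p6 at chr3:90465929-90466116, minus strand, and no other annotated gene covers it. Capitals mark an inverted CCAAT motif, 159 bases before the start at 90465866. The printed stretch stops short of that start, at 90465929.
Npr1: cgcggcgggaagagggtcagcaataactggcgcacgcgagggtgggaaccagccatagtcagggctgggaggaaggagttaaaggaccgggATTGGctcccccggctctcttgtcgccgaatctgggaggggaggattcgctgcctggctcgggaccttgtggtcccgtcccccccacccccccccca
In windows from 250 bases before to 50 after each start, CCAAT or ATTGG occurred in 37.4% of all 32851 RefSeq windows, and in 4 of the 9 windows that belonged to 7 of the measured genes. The GC box GGGCGG or CCGCCC occurred in 35.7% of all windows and in 6 of the 9. The TEAD motif GGAATG or CATTCC occurred in 14.7% of all windows and in 0 of the 9. The motifs were searched on both strands, and a match describes the letters of the window only.

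Npr1 was measured at 24.9 and 17.9 CPM in WT static cells (356 and 222 reads) and at 0.494 and 1.34 CPM in KO static cells (6 and 13 reads). In stretched cells it was at 17.1 and 14.0 CPM in WT and at 1.99 and 1.15 CPM in KO. The genotypes were thus far apart under both conditions, with means of 21.4 ± 4.93 against 0.915 ± 0.595 CPM in static cells and 15.6 ± 2.13 against 1.57 ± 0.594 CPM in stretched cells (SD, n = 2). The WT mean was 23.4-fold higher than the KO mean in static cells and 9.91-fold higher in stretched cells. Of the 13665 genes, 31 (0.227%) had a lowest WT culture at more than 4 times their highest KO culture, and Npr1 was among them by the way it was chosen. The exons of Npr1 share 559 bases with the antisense gene Gm16048, and the strand setting of the counting is not given in the sources used here.

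Npr2 (ENSMUSG00000028469, chromosome 4, 43631935 to 43651244, plus strand), the receptor for C-type natriuretic peptide, was at 35.5 and 39.2 CPM in WT static cells, 25.6 and 37.0 CPM in WT stretched cells, 31.7 and 37.1 CPM in KO static cells and 32.4 and 35.4 CPM in KO stretched cells. The genotypes overlapped in static and in stretched cells. On the log2(CPM + 1) scale, KO minus WT was -0.12 in static cells (95% interval -0.60 to 0.36, limma adjusted p = 0.938) and 0.13 in stretched cells (-0.35 to 0.61, adjusted p = 1). In static culture Npr1 and Npr2 were at 0.191 and 7.38 CPM per kilobase in KO cells and at 4.48 and 8.0 in WT cells. The low KO level of Npr1 is what it was chosen by.

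Npr3 (ENSMUSG00000022206, chromosome 15, 11839896 to 11907287, minus strand) encodes the clearance receptor, which removes natriuretic peptides and has no cyclase domain. Its replicates lay further apart than the genotypes. WT replicate 1 held 0.769 CPM static and 0.740 CPM stretched, whereas WT replicate 2 held 21.1 and 23.3 CPM. KO replicate 1 held 1.40 CPM static and 2.91 CPM stretched, whereas KO replicate 2 held 12.5 and 12.3 CPM. Replicate 2 exceeded replicate 1 by 27.4-, 31.6-, 8.95- and 4.21-fold in the 4 groups. A gap of at least 4-fold toward replicate 2 in all 4 groups was seen in 0.446% of all genes. Fibroblast markers summed to 18100 to 26400 CPM in the cultures of replicate 2 and to 11000 to 12200 CPM in those of replicate 1, and 2 of 11 of these markers, Lum and Col15a1, had the same gap of at least 4-fold. Their part in the result was not tested. With that spread, the genotype difference was -0.13 (95% interval -4.39 to 4.13, limma adjusted p = 0.997) in static cells and 0.15 (-4.11 to 4.40, adjusted p = 1) in stretched cells, so that differences of either direction and of large size are within the interval.

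**Figure D1:**
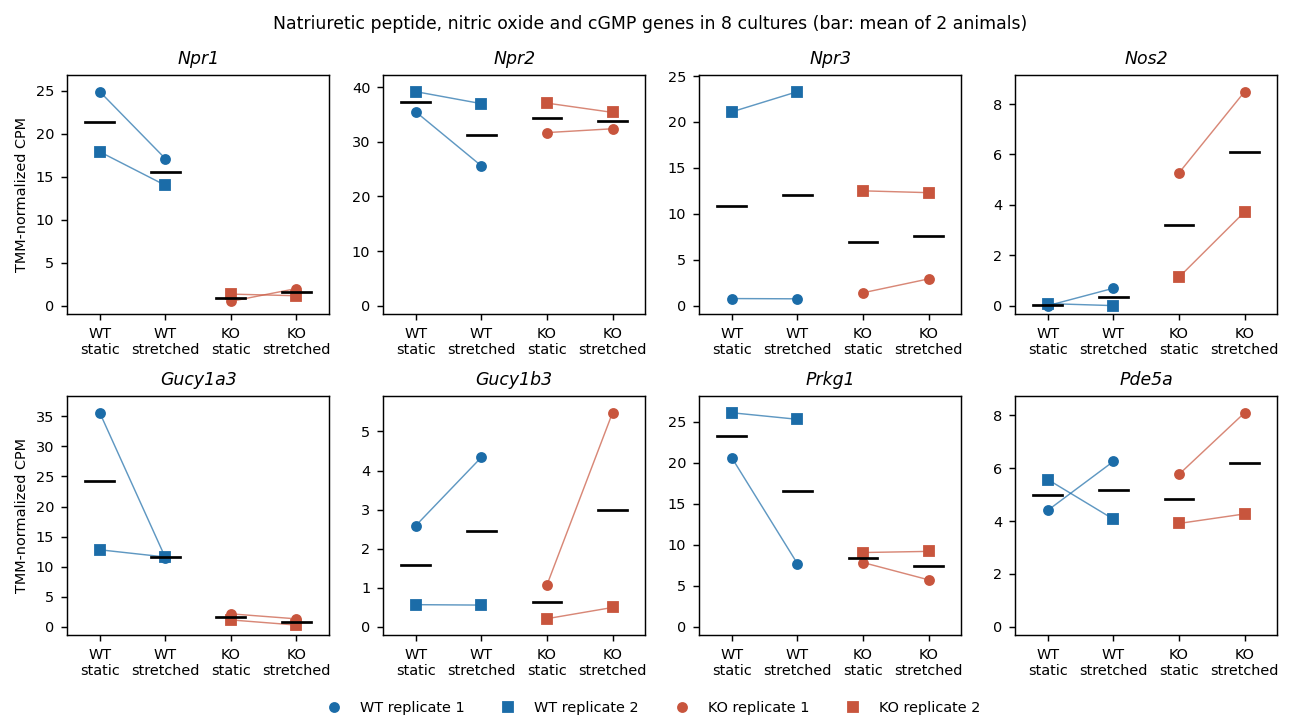
Level of the 8 measured genes in each culture (vertical axis, trimmed-mean normalized CPM, linear from 0, own scale per gene) by genotype and condition. Circles are replicate 1, squares replicate 2, lines join the cultures of one animal and bars are means of 2 animals. Npr1 and Gucy1a3 lie lower in all 4 KO cultures than in all 4 WT cultures, Nos2 lies higher, and Npr3 and Gucy1b3 split by replicate.

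Nos2 (ENSMUSG00000020826, chromosome 11, 78920787 to 78960254, plus strand) encodes the inducible nitric oxide synthase, which is known from activated macrophages and other cells under inflammatory stimuli. It had few reads in WT cells, with 0 and 1 reads in static and 14 and 0 reads in stretched cultures. In KO cells it had 64 and 11 reads in static and 175 and 68 reads in stretched cultures, which corresponds to 5.27 and 1.13 CPM and to 8.49 and 3.72 CPM. All 4 KO cultures exceeded all 4 WT cultures, a pattern of 3.86% of all genes. Pooled over replicates and scaled for depth, KO held 91.5-fold the Nos2 reads of WT in static cells (95% interval 15.9 to 3660) and 16.3-fold in stretched cells (9.53 to 30.3), where the intervals cover counting error only. On the log2(CPM + 1) scale the difference was 1.81 ± 0.61 (SE, limma adjusted p = 0.488) in static cells and 2.36 ± 0.61 (adjusted p = 0.431) in stretched cells, and neither passed the threshold of 0.05.

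Between the KO animals, replicate 1 had both the higher Nos2 level and the higher leukocyte marker sum. Within KO replicate 1 the sum was 4840 CPM in static and in stretched culture, while Nos2 was at 5.27 and 8.49 CPM. The leukocyte sum of KO replicate 2 was 307 and 337 CPM, against 448 and 466 CPM in WT replicate 1. In WT replicate 2 it was 76.0 and 80.9 CPM. Nos2 was at 1.13 and 3.72 CPM in KO replicate 2, above 0 and 0.690 CPM in WT replicate 1. It was at 0.0807 and 0 CPM in WT replicate 2. All 12 leukocyte markers had a KO minus WT difference above 0 under both conditions, beside 47.8% and 50% of all genes. Their median difference was 2.33 in static and 2.02 in stretched cells. The part of leukocyte RNA in the Nos2 result was not tested. Without the cultures of KO replicate 1, KO minus WT for Nos2 was 1.04 in static and 1.86 in stretched cells on the log2 scale (limma adjusted p = 0.606 and 0.492). Over all alternatives the adjusted p for Nos2 ran from 0.0632 to 0.983 in static and from 0.0801 to 0.987 in stretched cells.

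The soluble guanylyl cyclase works as a dimer of an alpha and a beta subunit, and both are needed for activity. Gucy1a3, now named Gucy1a1, encodes the alpha 1 subunit (ENSMUSG00000033910, chromosome 3, 82092427 to 82145789, minus strand). Gucy1b3, now named Gucy1b1, encodes the beta 1 subunit (ENSMUSG00000028005, chromosome 3, 82032006 to 82074689, minus strand). The genes are neighbours, with 17737 bases between them.

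Gucy1a3 was at 35.6 and 12.8 CPM in WT static cells and at 2.14 and 1.13 CPM in KO static cells. In stretched cells it was at 11.5 and 11.6 CPM in WT and at 1.31 and 0.274 CPM in KO. The level was lower in all 4 KO cultures than in all 4 WT cultures, as for 5.88% of all genes, and the means were 14.8-fold apart in static and 14.6-fold apart in stretched cells. The log2 difference was -3.12 ± 0.53 in static cells (SE, limma adjusted p = 0.122) and -2.87 ± 0.53 in stretched cells (adjusted p = 0.22). It did not pass the threshold in this fit or in edgeR's quasi-likelihood test on the reads (adjusted p = 0.244 and 0.355). It passed in DESeq2 (adjusted p = 0.00015 and 0.000259), which called 2.33% and 1.76% of all genes, and in the limma fit with the replicate number as a block (adjusted p = 0.0251 and 0.0426), which called 1.8% and 0.805%. Over all alternatives the adjusted p ran from 0.00015 to 0.641 in static and from 0.000259 to 0.688 in stretched cells. The marker sum of mesothelial cells was also lower in KO cultures, as given above. Of 10 smooth muscle and pericyte markers, 9 had a KO minus WT difference above 0 under both conditions, beside 47.8% and 50% of all genes. The part of either cell type in the result was not tested.

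For Gucy1b3 the replicates lay apart and the genotypes overlapped. WT replicate 1 held 2.59 CPM static and 4.34 CPM stretched, against 0.565 and 0.554 CPM in WT replicate 2. KO replicate 1 held 1.07 CPM static and 5.48 CPM stretched, against 0.206 and 0.493 CPM in KO replicate 2. Replicate 1 was 4.58- to 11.1-fold above replicate 2, and 0.622% of all genes had a gap of at least 4-fold in that direction in all 4 groups. Among the markers the same gap was found in 4 of 12 leukocyte, 1 of 10 smooth muscle and pericyte and 1 of 7 endothelial genes, and its part in the result was not tested. The genotype difference was -0.58 (95% interval -2.81 to 1.64, limma adjusted p = 0.933) in static and 0.11 (adjusted p = 1) in stretched cells. In KO replicate 2, Gucy1b3 rested on 2 reads in static and 9 reads in stretched culture.

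The ratio of both subunits varied between cultures. Per kilobase of exon, Gucy1a3 exceeded Gucy1b3 by 7.75- and 12.7-fold in WT static cells and by 1.5- and 11.8-fold in WT stretched cells. The ratio was 1.13 (95% interval 0.559 to 2.39) and 3.10 (0.676 to 28.8) in KO static cells. In KO stretched cells it was 0.135 (0.085 to 0.206) in replicate 1 and 0.313 (0.0824 to 1.04) in replicate 2. The intervals are exact binomial and cover counting error only. The last value rests on 5 Gucy1a3 and 9 Gucy1b3 reads, and its interval includes equal levels.

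**Figure D2:**
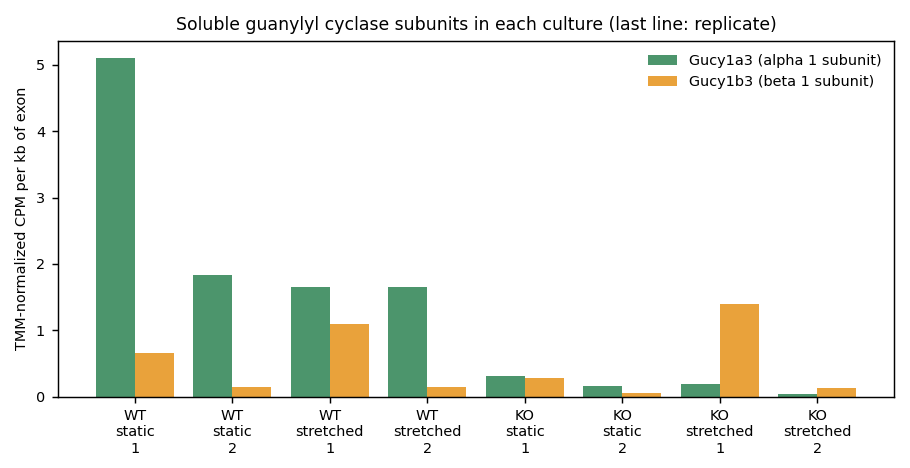
Level of the soluble guanylyl cyclase subunit genes per kilobase of exon (vertical axis, trimmed-mean normalized CPM per kilobase, from 0) in each of the 8 cultures. Gucy1a3 (green) is the higher one in the first 6 cultures, and Gucy1b3 (orange) is the higher one in both KO stretched cultures, at 1.40 against 0.188 and 0.125 against 0.0393, the latter pair from 9 and 5 reads.

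Prkg1 (ENSMUSG00000052920, chromosome 19, 30564489 to 31765033, minus strand), the cGMP-dependent protein kinase I, was at 20.6 and 26.1 CPM in WT static cells and at 7.83 and 9.05 CPM in KO static cells. These groups did not overlap, as for 20.8% of all genes with lower KO values in static culture, and the WT mean was 2.76-fold the KO mean. In stretched cells the groups overlapped, at 7.69 and 25.3 CPM in WT and 5.72 and 9.19 CPM in KO. The log2 difference was -1.36 (95% interval -2.62 to -0.10, limma adjusted p = 0.563) in static and -0.87 (adjusted p = 0.947) in stretched cells. The stretched value rested on WT replicate 2, without which it was -0.07 (limma adjusted p = 0.991, and 0.365 to 1 over all alternatives).

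Pde5a (ENSMUSG00000053965, chromosome 3, 122728947 to 122859374, plus strand), the cGMP-specific phosphodiesterase inhibited by sildenafil, was at 4.41 and 5.57 CPM in WT static, 6.26 and 4.07 CPM in WT stretched, 5.77 and 3.91 CPM in KO static and 8.10 and 4.27 CPM in KO stretched cells. All groups overlapped. KO minus WT was -0.05 (95% interval -0.91 to 0.81, limma adjusted p = 0.992) in static and 0.19 (-0.67 to 1.05, adjusted p = 1) in stretched cells on the log2 scale.

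Counted over the genes other than Npr1, limma called 0 of 7 between the genotypes in static cells, where it called 0.0732% of all genes, and 0 of 7 in stretched cells, where it called 0.0585%. At an unadjusted p under 0.05, 3 of 7 passed in static cells (Gucy1a3, Prkg1 and Nos2, against 8.17% of all genes) and 2 of 7 in stretched cells (Gucy1a3 and Nos2, against 6.26%). edgeR called 0 of 7 and DESeq2 called 1 of 7, Gucy1a3, under both conditions. The median difference of the 7 genes was -0.13 in static and 0.13 in stretched cells, beside -0.01 and 0 over all genes tested. The static and stretched comparisons use cultures of the same animals and are not independent of each other.

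**Figure D3:**
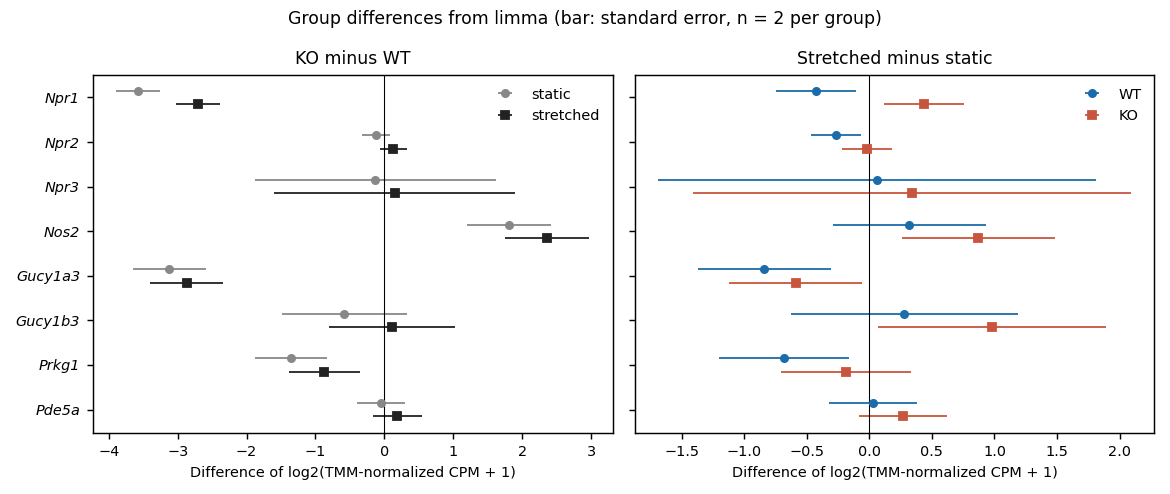
Differences of log2(CPM + 1) for the 8 genes (horizontal axis), KO minus WT on the left and stretched minus static on the right, with standard errors from limma. Npr1 at -3.57 and -2.70 and Gucy1a3 at -3.12 and -2.87 lie far below 0 on the left, Nos2 lies above 0, and the error bars of Npr3 are the widest. Npr1 on the left is a description, since that difference chose it.

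No difference between stretched and static cells passed limma's threshold in WT or in KO cells, nor did one for the interaction of genotype and stretch (0 of 8 each, where 0% of all genes passed). At an unadjusted p under 0.05, 0 of 8 passed in WT, where 2.27% of all genes did, 0 of 8 in KO (2.09%) and 0 of 8 for the interaction (0.483%). edgeR and DESeq2 also called 0 of 8. With the animal as a block, limma called 0 genes of all in WT and 1 in KO cells (0.00732%) and again 0 of 8. At an unadjusted p under 0.05, 1 of 8 (Gucy1a3) then passed in WT and 2 of 8 (Gucy1b3 and Nos2) in KO, against 14.5% and 13.3% of all genes. Npr1 was lower in the stretched culture of both WT animals, at 0.685 and 0.784 of the static level, which held for 33.9% of all genes. In KO cells it was 4.02 times the static level in replicate 1 (6 static and 41 stretched reads) and 0.860 times in replicate 2 (13 and 21 reads). The log2 changes were -0.43 ± 0.32 in WT and 0.44 ± 0.32 in KO (SE, limma adjusted p = 1 for both), and their difference was 0.87 (95% interval -0.23 to 1.97, adjusted p = 1).

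Gucy1a3 was lower in the stretched culture of all 4 animals, at 0.324 and 0.908 of the static level in WT and at 0.611 and 0.242 in KO, as were 16.9% of all genes. The value of 0.242, from KO replicate 2, rested on 11 static and 5 stretched reads. The log2 change of Gucy1a3 was -0.84 ± 0.53 in WT and -0.59 ± 0.53 in KO (SE, limma adjusted p = 1 for both). Nos2 was higher in the stretched culture of both KO animals, by 1.61- and 3.29-fold, with a log2 change of 0.87 ± 0.61 (adjusted p = 1). Gucy1b3 was higher there by 5.12- and 2.40-fold, with a log2 change of 0.98 (adjusted p = 1). The 2.40-fold value rested on 2 static and 9 stretched reads. The share of all genes that were higher in the stretched culture of both KO animals was not computed. Prkg1 was at 0.374 of its static level in WT replicate 1 and at 0.971 in WT replicate 2, so that its change in WT cells rested on one animal. Npr2 and Pde5a moved by less than 1.5-fold in every animal.

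The other genes of the pathway were taken from 5 lists of 64 genes, of which 43 were tested. limma called 0 of the 43 in any of the 5 comparisons, where it called 0.0732% and 0.0585% of all genes between genotypes and 0% otherwise. At an unadjusted p under 0.05, 5 of 43 passed between genotypes in static cells (8.17% of all genes) and 8 of 43 in stretched cells (6.26%). For stretch it was 2 of 43 in WT (2.27%) and 2 of 43 in KO (2.09%), and 0 of 43 for the interaction (0.483%). edgeR called 0 of 43 throughout. DESeq2 called Slc7a2, Itpr1 and Pde10a in static and Slc7a2 and Pde10a in stretched cells, 3 and 2 of 43 beside 2.33% and 1.76% of all genes. In static cells 1 of 4 ligand and ligand-processing genes had a KO minus WT difference above 0 (median -0.01). For the other guanylyl cyclases it was 0 of 3 (-0.13), for nitric oxide synthesis with its substrate and cofactor supply 8 of 18 (-0.10), for cGMP effectors 5 of 9 (0.10), and for cGMP breakdown and export 8 of 9 (0.29), beside 47.8% of all genes above 0 with a median of -0.01. In stretched cells the medians in that order were 0.18, -0.27, 0.01, 0.23 and 0.35, beside 0 over all genes.

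Among breakdown and export genes, Abcc4, an exporter of cyclic nucleotides, was at 21.8 and 21.2 CPM in WT static and 53.0 and 40.5 CPM in KO static cells, a log2 difference of 1.07 ± 0.33 (SE, limma adjusted p = 0.427). It was at 16.7 and 31.8 CPM in WT stretched and 44.2 and 61.6 CPM in KO stretched cells. Pde10a, a phosphodiesterase of both cyclic nucleotides, was at 13.0 and 11.4 CPM in WT static and 24.1 and 27.1 CPM in KO static cells (1.01 ± 0.19, adjusted p = 0.153), and at 18.3 and 13.2 against 27.6 and 30.3 CPM in stretched cells. Both were higher in all 4 KO cultures than in all 4 WT cultures. They were named by a rule that asked for no overlap between genotypes within either condition, so this pattern is a description. Of the 9 tested genes of this list, 2 had it, beside 3.86% of all genes. Pde1a differed by 0.49 in static cells (adjusted p = 0.754).

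Among effectors, Itpr1, the inositol trisphosphate receptor whose calcium release the kinase restrains in smooth muscle, was at 177 and 196 CPM in WT static and 58.8 and 78.3 CPM in KO static cells (-1.44 ± 0.30 SE, limma adjusted p = 0.203). In stretched cells it was at 73.8 and 133 CPM in WT and at 50.4 and 63.2 CPM in KO. Rgs2, a kinase substrate that limits G protein signalling, was at 1.04 to 1.37 CPM in WT cultures and 1.85 to 3.71 CPM in KO cultures (0.73 in static cells, adjusted p = 0.599). Prkg2, the other cGMP-dependent kinase gene, did not separate the genotypes, at 22.2 to 43.7 CPM in WT and 30.4 to 51.6 CPM in KO cultures.

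For nitric oxide synthesis, Slc7a2, which carries the substrate arginine into the cell, was at 12.2 and 20.3 CPM in WT static and 35.0 and 35.9 CPM in KO static cells (1.12 ± 0.27 SE, limma adjusted p = 0.262). It was at 14.6 and 18.5 CPM in WT stretched and 35.8 and 46.1 CPM in KO stretched cells. Arg1, an arginase that competes for the same substrate, was at 179 and 150 CPM in KO replicate 1, 10.4 and 12.7 CPM in KO replicate 2 and 0.862 to 9.57 CPM in WT cultures (3.61 ± 1.76 in static cells, adjusted p = 0.703), so that its group mean rested on the animal with the highest leukocyte sum. Nos1ap, an adaptor of neuronal nitric oxide synthase, was at 11.3 and 22.9 CPM in WT static and 2.55 and 7.81 CPM in KO static cells (-1.62 ± 0.73, adjusted p = 0.666). The ligand gene Nppb, which encodes B-type natriuretic peptide, was at 0.789 to 2.97 CPM over all 8 cultures and did not separate the genotypes.

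**Figure D4:**
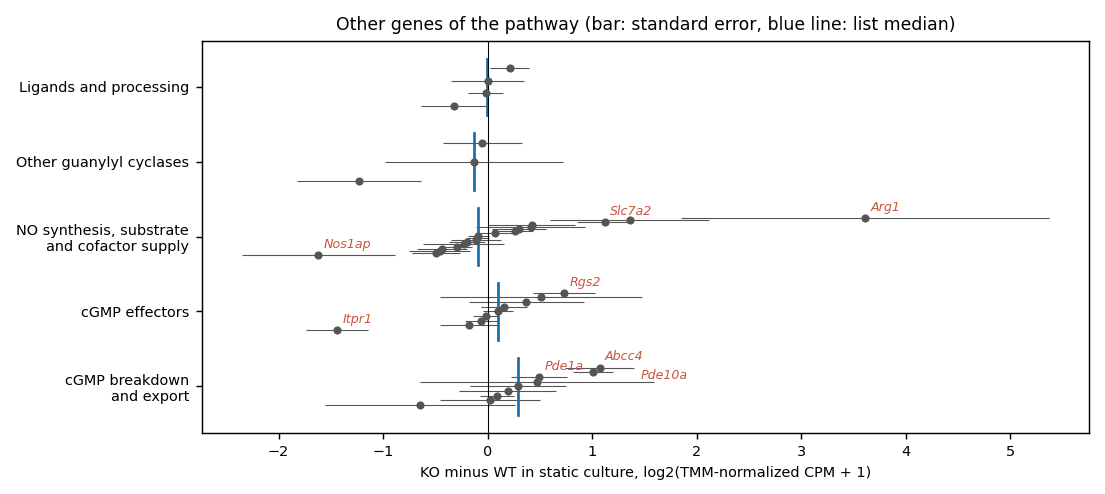
KO minus WT in static cells (horizontal axis, log2(CPM + 1)) for the 43 tested pathway genes other than the 8 above, by list, with standard errors from limma. Blue lines are list medians and the vertical black line is 0, with genes named by a fixed rule in red. Most breakdown and export genes lie right of 0, and none of the 43 passed the threshold.

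The genes whose pattern was most like Npr1 over the 8 cultures were Lmo4 (Pearson r = 0.989 of log2(CPM + 1)), B3gnt7 (0.988), Gata5 (0.981), Tnfrsf4 (0.980) and Laptm4b (0.977). The 8 cultures share genotype and animal, and Npr1 was chosen by its low KO level. All r values with Npr1 therefore largely restate genotype differences and are a description. Gata5, a transcription factor gene, was at 17.1 and 11.9 CPM in WT static and 0.165 and 0.411 CPM in KO static cells, and Lmo4, a LIM domain gene, was at 133 and 135 against 50.2 and 65.2 CPM. Among the other measured genes of the set, without the further pathway lists, Gucy1a3 was the most like Npr1 (r = 0.937), followed by Prkg1 (0.710). Nos2 ran opposite (-0.846).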

How the data were processed

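RNA-seq of 8 cultures (4 groups of 2, from 4 animals) was analysed. As stated by the authors, reads were trimmed with Cutadapt, quantified with RSEM on the GRCm38 transcriptome and normalized with edgeR. The unit of the deposited table is a signal, namely TMM-normalized CPM per gene, which the authors made from estimated counts. Whole reads were recovered from the step size of these values (100% whole within 0.1 read), so depth is known. Genes that reached 1 CPM in 2 or more libraries (13665 of 13687 genes, 88 of the 13687 without a symbol) were fitted on log2(value + 1) with limma 3.58.1 (R 4.3.3), 1 mean per group, an intensity trend, 4 residual degrees of freedom and Benjamini-Hochberg adjustment at 0.05. A pseudocount of 1 understates the change of low genes. Alternatives used edgeR 4.0.16 quasi-likelihood and DESeq2 1.42.0 on the recovered reads, other pseudocounts, filters and scaling, the 4 libraries of a comparison alone, libraries left out in turn, and a replicate block. The scripts were tested on simulated data.

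By label, static and stretched cultures with the same number and genotype came from the same animal. Deviations of these pairs from their group means correlated with r = 0.703 in WT and 0.85 in KO over 13665 genes. The block for stretch comparisons was the animal. By label, WT and KO cultures of the same number came from different animals, and the block for genotype comparisons was the number alone.

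The genes, lists and markers were chosen with earlier results of these data known. Named were the measured members, Cav1, and from each pathway list any called gene and up to 3 with the largest static difference and no overlap between genotypes within either condition. Prkg2, Nppb, Mrvi1, Lum, Col15a1, Wt1 and Krt19 were named after their values were seen. Exon lengths and positions come from GENCODE M21 (13597 of 13687 identifiers matched), and upstream sequence from RefSeq (GRCm38.p6).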

Additional observations from a re-analysis of the deposited data

How the results depend on the processing

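Genes called over all genes numbered 10 in static and 8 in stretched cells between genotypes. DESeq2 called 318 and 241, and 3 for stretch in WT and 7 in KO cells. edgeR called 2 in static and 6 in stretched cells. A fit of the 4 libraries of the comparison alone called 0 and 0, and leaving out both cultures of KO replicate 1, chosen after seeing the data, called 0 and 0. Without single libraries the counts were 0 to 5 in both genotype comparisons and 0 to 0 for stretch.

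With the replicate number as a block, 246 genes (1.8%) were called in static and 110 (0.805%) in stretched cells between genotypes. With the animal as a block, the counts were 0 for stretch in WT, 1 in KO and 0 for the interaction. Gucy1a3 passed with the number as a block (adjusted p = 0.0251 and 0.0426), as did Arg1 (0.0346), Slc7a2 (0.0449), Nos1ap (0.0251) and Itpr1 (0.0305) in static and Nos1ap and Mrvi1 in stretched cells. The labels give WT and KO cultures of one number as different animals, while their deviations from the group means correlated with r = 0.522 in static and 0.484 in stretched cells. What the number marks is not given in the sources used here. The block changed no other call on the members.

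Of 373 values of the members under alternatives, 334 kept direction and side of the threshold, 27 changed sign, 4 passed the threshold and 8, all of Npr1, moved in size. Npr1 ranged from -4.59 to -2.15 in static and -3.30 to -1.64 in stretched cells, and Nos2 from 0.66 to 6.40 and 1.02 to 4.35. KO minus WT of Npr3 was 0.022 in static cells with a pseudocount of 0.1, and in stretched cells -0.13 with a pseudocount of 5, -0.66 in edgeR and -0.67 in DESeq2. Without KO replicate 1 it was 1.12 for Npr3 in static cells, and -0.95 for Gucy1b3 and -0.20 for Pde5a in stretched cells, while the stretch change in KO cells was -0.12 for Npr1 and 0.021 for Prkg1. Without single libraries, the genotype difference ran in static cells from -1.95 to 1.69 for Npr3, -1.18 to 0.014 for Gucy1b3 and -0.28 to 0.18 for Pde5a. In stretched cells it ran from -1.76 to 2.05 for Npr3, -0.95 to 1.17 for Gucy1b3, -0.20 to 0.59 for Pde5a and -0.13 to 0.39 for Npr2. The stretch change ran from -0.61 to 1.17 for Gucy1b3, -1.48 to 0.12 for Prkg1 and -0.056 to 0.70 for Nos2 in WT cells, and from -0.082 to 2.04 for Gucy1b3 and -0.49 to 0.11 for Prkg1 in KO cells. The causes were not tested. With a mean of at least 5, Gucy1b3 and Nos2 give no value. Depth limits Nos2 in WT cells (0 to 14 reads) and Gucy1b3 in KO replicate 2 (2 and 9 reads).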
